A study of Homo sapiens with 14 samples.

Results

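The 10 collagen genes that fibroblasts are best known for were followed here across 14 chromatin immunoprecipitation libraries of RNA polymerase II (RNAPII). They are the fibrillar genes COL1A1, COL1A2, COL3A1, COL5A1 and COL5A2, the type IV genes COL4A1 and COL4A2, and the type VI genes COL6A1, COL6A2 and COL6A3. They were picked by name from the genes for chains of types I, III, IV, V and VI. All 10 were found among the 12425 genes of the deposited table. COL4A5, COL4A6 and COL5A3, of types IV and V, were also in the table and are read with the other collagens. The cells were BJ hTERT, an established line of human foreskin fibroblasts kept in culture by added telomerase, so the groups share 1 genetic background. Chromatin was precipitated with an antibody to the N-terminal part of RPB1, the largest RNAPII subunit, called total RNAPII here. A second antibody recognised RPB1 that carries phosphate on serine 2 in the repeats of its tail, called Ser2 here. With each antibody there was 1 library from cells given ATRi, an inhibitor of the checkpoint kinase ATR, and 1 from cells given DMSO, its vehicle, at each of 16, 19 and 22 h. One further library per antibody came from 14 h. It carries no treatment name in its sample labels, and its column in the table is headed CTR. The compound, its dose and the event from which the hours count are not given in the labels, and the protocol text names antibodies to histones only, so the antibody of each library rests on its own description.

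A collagen molecule is a triple helix of 3 chains, built in the endoplasmic reticulum and secreted. Types I, III and V assemble into the fibrils that carry tension in skin and tendon, type IV forms the sheet-like network of basement membranes, and type VI forms beaded microfilaments around cells. Dermal fibroblasts are a main source of types I, III, V and VI. RNAPII over a gene body is read as transcribing polymerase, and Ser2 phosphorylation accumulates on polymerase during elongation. RNAPII occupancy is not the amount of mRNA or protein.

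Values are reads over the full span of a gene, introns included, per 1000000 reads of the library (RPM). Polymerase at the start of a gene and along its body is counted together in these values. Libraries held 17181179 to 62368915 reads, and the lowest count of any collagen gene in any library was 320 reads, so counting error limits mainly the genes with the fewest reads. The groups hold 1 library each, so no level has a replicate error. The share of reads that fell in the listed nuclear genes ran from 35.8% in Ser2 at 16 h with DMSO to 72.0% in total RNAPII at 19 h with DMSO. That share moves the values of most genes together, so the log2 ratio of the median gene is given beside the collagen ratios. Of 10 fibroblast markers 9 were in the table. By reads per kilobase their median percentiles among all genes ran from 63.7 for FAP to 99.4 for VIM, an intermediate filament gene. The table held 1 of 7 keratinocyte markers (KRT14, 0.236 to 1.18 RPM) and 0 of 5 blood markers. It held 2 of 5 endothelial markers (VWF, 15.2 to 50.5 RPM, and TEK, 12.6 to 38.3 RPM). The melanocyte list gave 1 of 4 (MITF, 36.5 to 75.5 RPM) and the smooth muscle list 1 of 3 (CNN1, 2.86 to 7.69 RPM). By reads per kilobase none of these had a median percentile above 14.5. Symbols were matched by position for 86.3% of genes, so a marker not found may be a gene left unnamed. In chromatin pooled from many cells, more cells with polymerase on a gene and more polymerase per cell cannot be told apart.

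The pair of type I genes held the most RNAPII per length. Per kilobase (RPM per kb), COL1A1, the gene for the main chain of type I collagen, had a median of 13.6 in the 7 total RNAPII libraries and 8.50 in the 7 Ser2 libraries. COL1A2, which encodes the partner chain, followed with 12.6 in total RNAPII and 6.25 in Ser2. COL1A1 lay above COL1A2 in 7 of 7 total RNAPII libraries and 6 of 7 Ser2 libraries, and COL1A2 lay above COL6A3 in all 7 of each.

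The remaining genes were several times lower and closer together. COL6A3, the gene for the longest chain of type VI collagen, had a median of 3.00 RPM per kb in total RNAPII and COL6A2, its partner, had 2.48. COL6A3 was the higher of this pair in 6 of 7 total RNAPII libraries and 7 of 7 Ser2 libraries. COL5A1, the gene for the common chain of the fibril-nucleating type V collagen, had 1.76 RPM per kb, COL6A1 1.41, COL5A2 1.31, COL4A2 1.22, COL3A1 1.10 and COL4A1 0.983 in total RNAPII. Among these 6 the order was not stable: COL5A1 exceeded COL6A1 in 4 of 7 libraries, COL4A2 exceeded COL3A1 in 3 of 7, and COL3A1 exceeded COL4A1 in 4 of 7. Together the 10 genes held between 0.271% (Ser2, 16 h, DMSO) and 0.438% (total RNAPII, 16 h, ATRi) of the reads in nuclear genes.

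**Figure D1:**
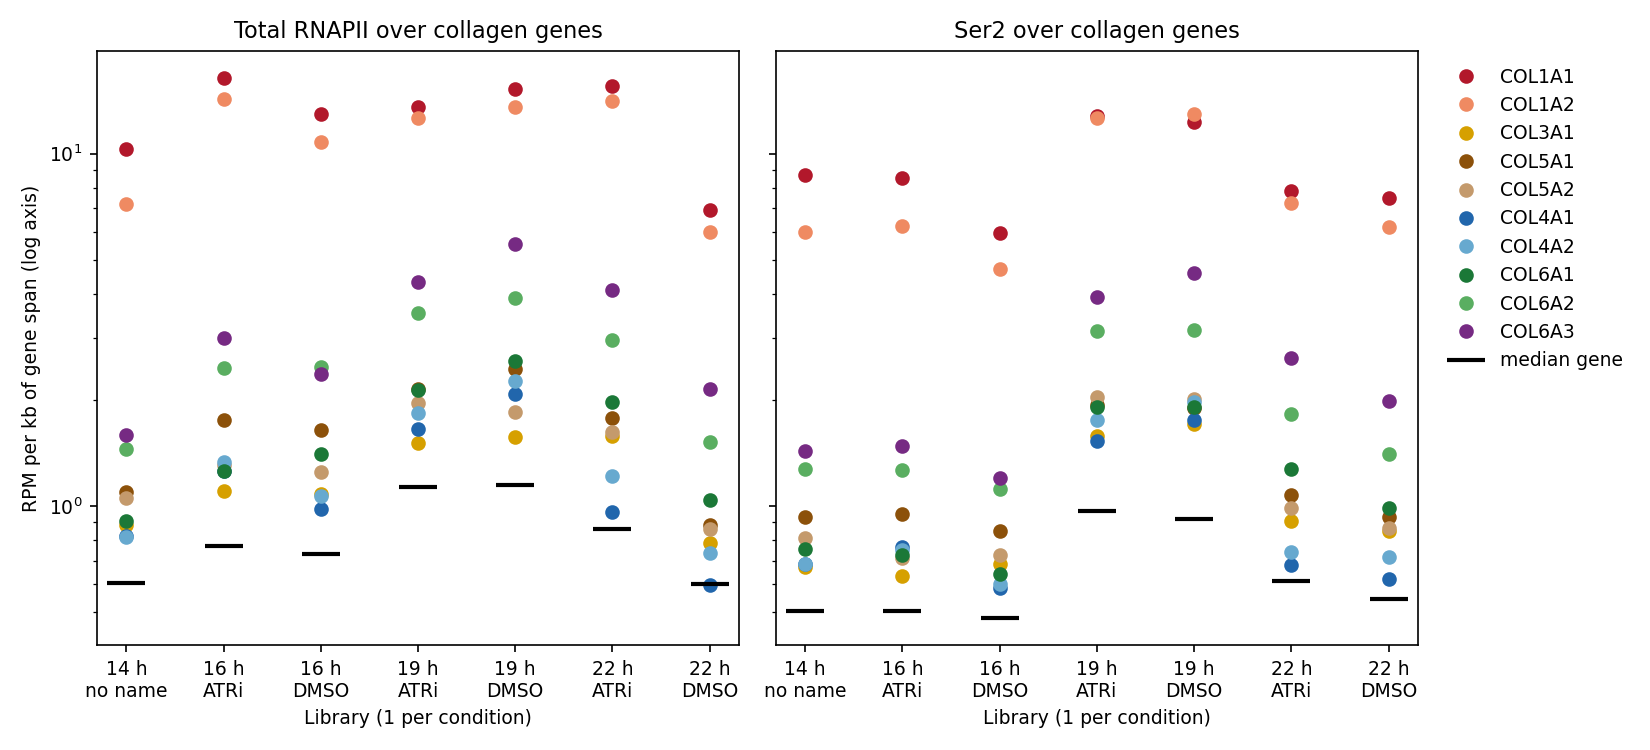
RNAPII density (RPM per kb of gene span, log axis) over each of the 10 collagen genes in the 14 libraries, total RNAPII on the left and Ser2 on the right, 1 point per gene and library; the bar is the median of all genes. COL1A1 and COL1A2 stand above the other 8 genes in every library, and the lowest collagen points lie near the bar.

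The type I genes occupy separate chromosomes. COL1A1 (ENSG00000108821) spans chr17:50183289-50201632 on the minus strand of hg38, and COL1A2 (ENSG00000164692) spans chr7:94394561-94431232 on the plus strand. Total RNAPII over COL1A1 was 188.7 RPM at 14 h, 301.0 with ATRi and 238.0 with DMSO at 16 h, 249.1 with ATRi and 280.2 with DMSO at 19 h, and 286.2 with ATRi and 127.1 with DMSO at 22 h. Over COL1A2 total RNAPII was 263.4 RPM at 14 h, 524.7 with ATRi and 396.3 with DMSO at 16 h, 462.8 with ATRi and 497.0 with DMSO at 19 h, and 517.4 with ATRi and 219.2 with DMSO at 22 h. In both genes the 22 h DMSO library was the lowest of the 7, below even 14 h, while the 22 h ATRi library stood near the top.

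Ser2 over the type I genes followed another course. COL1A1 had 159.5 RPM at 14 h, 155.9 with ATRi and 109.4 with DMSO at 16 h, 234.5 with ATRi and 226.2 with DMSO at 19 h, and 143.6 with ATRi and 137.2 with DMSO at 22 h. COL1A2 had 219.3 RPM at 14 h, 229.2 with ATRi and 172.6 with DMSO at 16 h, 463.7 with ATRi and 476.4 with DMSO at 19 h, and 265.3 with ATRi and 226.5 with DMSO at 22 h. Both 19 h libraries stood above all the others, and at 22 h the ATRi and DMSO libraries lay close together, unlike in total RNAPII.

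The other fibrillar genes are COL3A1 (ENSG00000168542, chr2:188974320-189012746, plus strand), COL5A1 (ENSG00000130635, chr9:134641774-134844843, plus strand) and COL5A2 (ENSG00000204262, chr2:189031896-189179879, minus strand). COL3A1 encodes type III collagen, which accompanies type I in skin, and lies next to COL5A2 on chromosome 2. RefSeq places other, mostly non-coding, genes over 27.5% of the COL3A1 span and 17.5% of the COL5A1 span, and reads there cannot be assigned to the collagen gene alone. Total RNAPII over COL5A2, the gene for the second type V chain, was 156.5 RPM at 14 h, 193.6 with ATRi and 184.5 with DMSO at 16 h, 290.6 with ATRi and 272.9 with DMSO at 19 h, and 240.7 with ATRi and 127.6 with DMSO at 22 h. It was the only one of the 10 genes whose ATRi library was above its DMSO library at each hour in total RNAPII. COL3A1 ranged over 30.2 to 60.9 RPM in total RNAPII and 24.3 to 65.7 RPM in Ser2. COL5A1 ranged over 180.1 to 497.6 RPM in total RNAPII and 172.8 to 392.0 RPM in Ser2.

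COL4A1 (ENSG00000187498, chr13:110148963-110307149, minus strand) and COL4A2 (ENSG00000134871, chr13:110305812-110513027, plus strand) encode the chains of the most widespread type IV collagen and lie head to head. Their spans in the table share 1338 bp, and counting of reads there is not stated. Their RefSeq starts, at 110307157 and 110307284, leave 126 bases between them, so 1 stretch of DNA precedes both genes. The COL4A2 window of 250 bases before to 50 bases after the start (chr13:110307034-110307333, plus strand, RefSeq, GRCh38.p14) is shown because it holds all of that stretch. Capitals mark matches on either strand to the GC box GGGCGG, the CCAAT box CCAAT or the TATA box TATAAA, 3 classical promoter motifs. No match shares bases with another.
COL4A2 promoter: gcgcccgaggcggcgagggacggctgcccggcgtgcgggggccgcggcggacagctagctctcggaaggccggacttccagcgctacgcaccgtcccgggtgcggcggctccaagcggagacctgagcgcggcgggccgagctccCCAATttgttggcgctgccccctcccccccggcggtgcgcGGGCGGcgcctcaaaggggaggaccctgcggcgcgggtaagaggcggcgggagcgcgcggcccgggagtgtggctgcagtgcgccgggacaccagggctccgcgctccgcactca
Between the starts lie 1 CCAAT box and 1 GC box, and no TATA box was matched. Of 27305 RefSeq promoter windows of the same length, 44.6% hold a GC box match, 35.7% a CCAAT box match and 12% a TATA box match, so such letters are common.

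RNAPII over the type IV pair ran in parallel. Total RNAPII over COL4A1 was 130.5 RPM at 14 h, 198.8 with ATRi and 155.5 with DMSO at 16 h, 261.3 with ATRi and 328.8 with DMSO at 19 h, and 152.1 with ATRi and 94.4 with DMSO at 22 h. Over COL4A2 it was 169.1 RPM at 14 h, 276.6 with ATRi and 221.2 with DMSO at 16 h, 380.1 with ATRi and 470.0 with DMSO at 19 h, and 253.2 with ATRi and 153.1 with DMSO at 22 h. The ATRi library was the higher at 16 and 22 h and the lower at 19 h in both genes. Ser2 ranged over 92.9 to 278.0 RPM for COL4A1 and 125.0 to 407.9 RPM for COL4A2, each lowest in the 16 h DMSO library and highest in the 19 h DMSO library.

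The type VI genes COL6A1 (ENSG00000142156, chr21:45981737-46005050, plus strand) and COL6A2 (ENSG00000142173, chr21:46098097-46132849, plus strand) are neighbours on chromosome 21, and COL6A3 (ENSG00000163359, chr2:237324003-237414375, minus strand) lies on chromosome 2. Their chains form 1 molecule. The promoter windows of COL6A2 (chr21:46097862-46098161, plus strand) and COL6A3 (chr2:237414115-237414414, minus strand) are set side by side because these genes had like courses across the libraries (r = 0.87). COL6A1 ran closer to COL6A3 (r = 0.93) but had no matched window. Among 11999 genes COL6A2 held only rank 838 in likeness to COL6A3. Capitals mark the same 3 motifs.
COL6A2 promoter: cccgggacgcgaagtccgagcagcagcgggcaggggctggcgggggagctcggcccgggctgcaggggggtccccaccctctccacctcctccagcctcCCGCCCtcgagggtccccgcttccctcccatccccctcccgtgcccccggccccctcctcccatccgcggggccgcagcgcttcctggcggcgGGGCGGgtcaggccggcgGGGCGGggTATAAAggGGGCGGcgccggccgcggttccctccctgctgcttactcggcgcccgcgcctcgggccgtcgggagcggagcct
COL6A3 promoter: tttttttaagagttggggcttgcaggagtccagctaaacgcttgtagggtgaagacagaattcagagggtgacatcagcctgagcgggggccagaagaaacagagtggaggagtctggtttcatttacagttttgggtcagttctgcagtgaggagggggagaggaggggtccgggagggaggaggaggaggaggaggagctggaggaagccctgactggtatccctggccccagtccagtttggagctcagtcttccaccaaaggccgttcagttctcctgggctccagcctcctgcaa
COL6A2 had 4 GC box matches and 1 TATA box match, which begins 32 bases before the start, and COL6A3 had no match to any of the 3 motifs. No match says only that these letters are not in this window.

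Total RNAPII over COL6A3 was 143.8 RPM at 14 h, 271.3 with ATRi and 214.6 with DMSO at 16 h, 390.0 with ATRi and 501.3 with DMSO at 19 h, and 371.6 with ATRi and 194.6 with DMSO at 22 h. Ser2 over COL6A3 was 129.6 RPM at 14 h, 133.9 with ATRi and 108.5 with DMSO at 16 h, 355.0 with ATRi and 415.1 with DMSO at 19 h, and 237.6 with ATRi and 180.1 with DMSO at 22 h. With both antibodies the 19 h DMSO library was the highest, and the ATRi library exceeded the DMSO library at 16 and 22 h. COL6A1 ranged over 21.2 to 60.2 RPM in total RNAPII and 14.9 to 44.6 RPM in Ser2. COL6A2 ranged over 50.5 to 135.5 RPM in total RNAPII and 38.9 to 109.5 RPM in Ser2.

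The first comparison asked how ATR inhibition altered RNAPII over these genes. In total RNAPII the 3 hours gave 3 different pictures. At 22 h all 10 genes had more RNAPII with ATRi than with DMSO, with log2 ratios of 0.69 for COL4A1 to 1.24 for COL1A2, which is 2.36-fold. All 10 passed a log2 ratio of 0.5, as did 50.5% of all genes with 1.41% as far below, and the median gene had 0.50. COL1A1 stood at the 99.2th percentile of all genes at 22 h and COL1A2 at the 99.6th. The library pair differed in reads within genes, with 57.4% in the ATRi library and 42.8% in the DMSO library, and the part of that difference in the collagen ratios was not tested.

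At 19 h the collagen genes were on the other side. Of the 10 genes 9 had a lower total RNAPII value with ATRi than with DMSO, from a log2 ratio of -0.36 for COL6A3 to 0.09 for COL5A2. COL5A2 was also the only gene of the 10 above the median gene. The share of all genes that were lower was not counted. None passed 0.5 in either direction, against 0.0414% of genes above and 0.0497% below. COL6A3, COL4A1 and COL4A2 nevertheless stood at the 0.248th, 0.538th and 0.837th percentile of all genes, since few genes departed at 19 h from the median gene, which had -0.03. In-gene reads were 70.8% with ATRi and 72.0% with DMSO.

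At 16 h the genes split in total RNAPII. COL1A2 (0.40), COL4A1 (0.35), COL1A1 (0.34), COL6A3 (0.34) and COL4A2 (0.32) had log2 ratios above the median gene at 0.05 by more than the 95% counting interval. COL6A1 (-0.17) lay below it by more than its interval, and COL5A1 (0.09), COL5A2 (0.07), COL3A1 (0.03) and COL6A2 (-0.01) had intervals that held it. None of the 10 passed 0.5, against 1.21% of genes above and 0.2% below. The type VI genes were therefore spread out at 16 h, with COL6A3 above and COL6A1 below the median gene.

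In Ser2 the type I, type IV and COL6A3 genes again led at 16 h, and the ratios at 22 h were smaller. At 16 h the log2 ratios of ATRi to DMSO were 0.51 for COL1A1, 0.41 for COL1A2, 0.38 for COL4A1, 0.32 for COL4A2 and 0.30 for COL6A3, and -0.12 for COL3A1, beside 0.06 for the median gene. COL6A1, the lowest of the 10 in total RNAPII, had 0.19 in Ser2, with a counting interval of -0.01 to 0.38. Of the 10 genes 1, COL1A1, passed 0.5, against 2.96% of all genes above and 0.0672% below. At 19 h the ratios ran from -0.23 for COL6A3 to 0.05 for COL1A1, and all 10 lay below the median gene at 0.06; none of the 10 passed 0.5, against 0.116% of genes above and 0.0746% below. At 22 h they ran from 0.05 for COL4A2 to 0.40 for COL6A3 beside 0.16 for the median gene, and none passed 0.5, against 3.53% of genes above and 0.151% below. The type VI genes led at 22 h, with 0.40 for COL6A3, 0.38 for COL6A2 and 0.36 for COL6A1, while COL1A1, which led at 16 h, had 0.07.

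Few of the genes kept 1 direction through the hours. In total RNAPII, 1 of the 10, COL5A2, was higher with ATRi at all 3 hours, against 17.9% of all genes, and none was lower at all 3, against 1.29%. With each pair set to its median gene COL5A2 was again higher at all 3 hours, against 8.27% of genes, and none was lower at all 3, against 6.9%. In Ser2, 2 of the 10, COL1A1 and COL5A1, were higher at all 3 hours, against 42.8% of genes, and none was lower, against 3.43%. With each Ser2 pair set to its median gene none was higher at all 3 hours, against 16% of genes, and COL3A1 was lower at all 3, against 16.9%. None of these counts of the 10 stands well above the share of all genes.

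**Figure D2:**
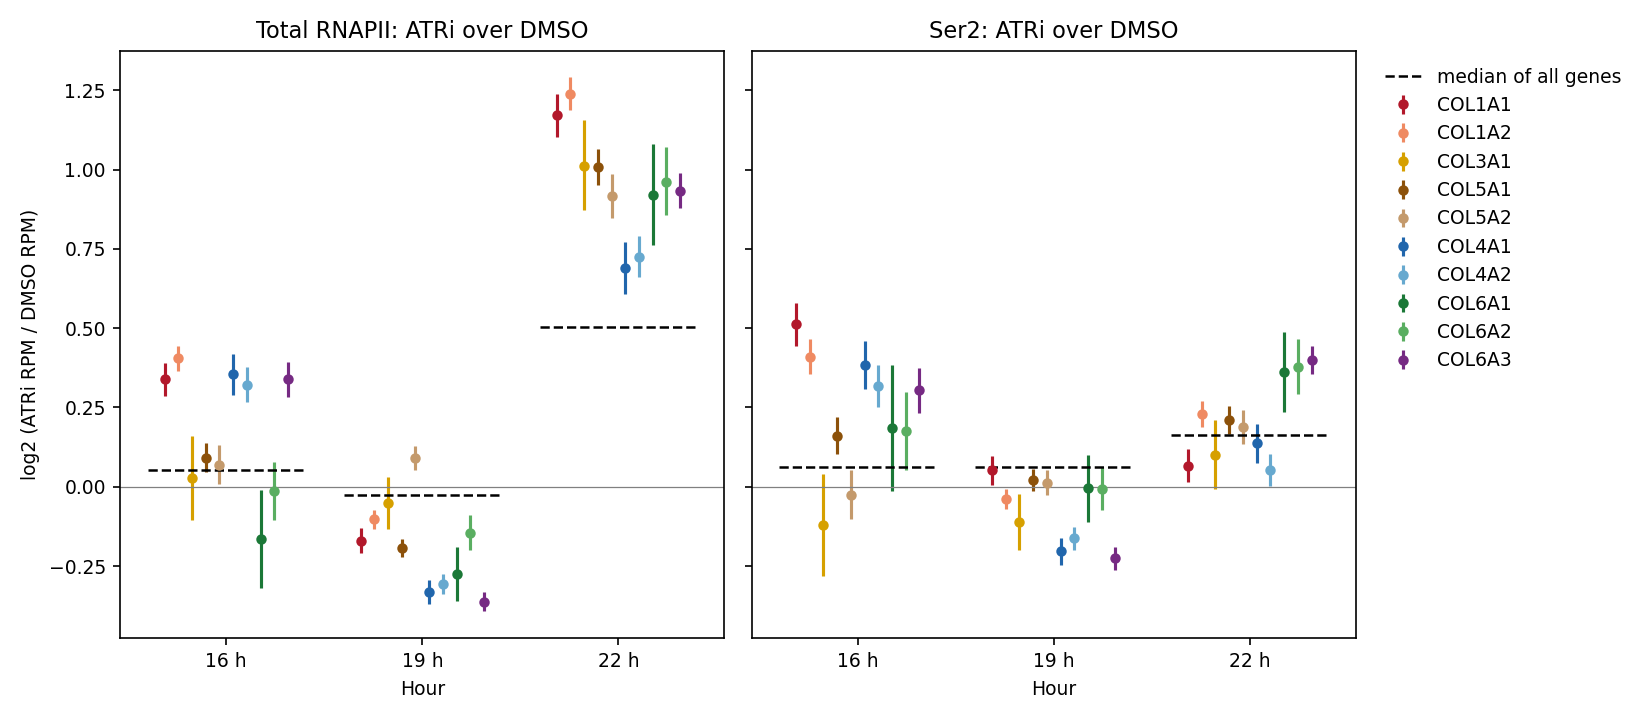
Log2 ratio of ATRi RPM to DMSO RPM over each collagen gene at 16, 19 and 22 h, total RNAPII on the left and Ser2 on the right; each point is 1 pair of libraries, vertical bars are exact 95% intervals for counting error only, and dashed lines are the median of all genes. At 22 h all 10 total RNAPII points lie above the dashed line at 0.50, and at 19 h all 10 Ser2 points lie below the line at 0.06.

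The hours were then used as blocks, since each group holds 1 library. In total RNAPII the mean log2 difference, ATRi minus DMSO, was 0.51 ± 0.22 for COL1A2 and 0.45 ± 0.20 for COL1A1 (moderated SE, 3 pairs), and 0.16 ± 0.21 for COL6A1, the lowest of the 10. The median of the 10 genes was 0.30 and that of all genes 0.18, and 9 of the 10 lay above the median gene. None of the 10 passed limma's test at an adjusted p of 0.05, nor did any of 12031 genes (0%). Before adjustment 2 of the 10 genes and 204 of all genes had p under 0.05. With edgeR and with DESeq2 the count was 0 genes. The adjusted p was 0.767 for COL1A2 and COL1A1 in limma. Median centring gave a median of 0.13 for the 10 and removal of the density trend 0.024, with 8 of 10 above the median gene. Without the 22 h pair the median of the 10 was -0.0019, with 3 of 10 above the median gene, and without the 19 h pair it was 0.52.

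In Ser2 the mean differences were smaller. They ran from -0.04 ± 0.08 for COL3A1 to 0.21 ± 0.08 for COL1A1, with a median of 0.14 for the 10 genes and 0.10 for all genes. Limma called none of the 10 and none of 11989 genes (0%), and before adjustment 4 of the 10 had p under 0.05, among 2630 genes higher and 25 lower. The lowest adjusted p among the 10 was 0.156, for COL1A1 and COL1A2. EdgeR called 0 genes, and DESeq2 called 0 but gave no adjusted p for 10692 of the 11989. Without the 19 h pair, limma called 846 genes higher, among them 3 of the 10 collagens. Without the 16 h pair 2 of the 10 lay above the median gene, against 7 with all hours.

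Whether the difference depended on the antibody was tested in the same libraries. Ser2 minus total, the difference in the ATRi effect was below the median gene (-0.06) for 9 of the 10 genes, with a median of -0.17. COL3A1 had -0.37 ± 0.26 and COL1A2 -0.31 ± 0.29, and COL6A1 was the exception with 0.02 ± 0.28. Limma called none of the 10 and none of 12013 genes (0%), and before adjustment p was under 0.05 for 0 of the 10, 4 genes higher and 5 lower. The count with edgeR and with DESeq2 was 0. Without the 22 h libraries the median of the 10 became 0.07, with 7 of 10 above the median gene.

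Whether the 22 h ATRi difference departed from that of the earlier hours was tested with the antibodies standing in for replicates. The 22 h difference exceeded the mean of 16 and 19 h by 0.70 ± 0.18 for COL6A1, 0.66 ± 0.15 for COL6A2 and 0.65 ± 0.14 for COL6A3 on the log2 scale, and by 0.35 ± 0.16 for COL4A2, the smallest. All 10 genes lay above the median gene, which had 0.29, and their median was 0.58. With median centring that median was 0.29 and with the density trend removed 0.10, with 7 of the 10 above the median gene. With background subtracted 8 of the 10 lay above it, and without 19 h 7 of the 10. None passed limma's adjusted p of 0.05 and neither did any of 12013 genes (0%). Among the 10 the type VI genes came closest, with limma's adjusted p of 0.0545 for COL6A2 and COL6A3 and 0.0546 for COL6A1. Genes outside type VI shared these values, such as P4HB, ITGB1 and COL7A1 at 0.0545 and PPIB at 0.0546. The values are therefore not particular to type VI. Before adjustment p was under 0.05 for 8 of the 10, among 4864 genes higher and 223 lower. EdgeR called 0 genes, and DESeq2, which gave no adjusted p for 5357 genes, called 10 higher and 246 lower, none of them among the 10. The antibodies may have been used on the same chromatin, which the labels do not say.

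The largest fitted differences were between hours. The ATRi and DMSO libraries of an hour stood in for replicates, so the hour cannot be told from anything else its libraries share. The p-values below do not measure the spread between independent cultures of an hour. Ser2 rose at 19 h over 16 h in all 10 genes (limma, treatment as a term), as it did in 85.9% of all genes, while 5.67% fell. COL6A3 gained 1.67 ± 0.11 on the log2 scale (adjusted p = 1.27e-10), COL5A2 1.49 ± 0.09 (adjusted p = 2.9e-11) and COL4A2 1.46 ± 0.10 (adjusted p = 1.22e-10), and COL1A1, the smallest, 0.82 ± 0.10 (adjusted p = 3.37e-07). The median gene gained 0.90, with in-gene reads of 65.6% (ATRi) and 63.5% (DMSO) at 19 h and 37.1% (ATRi) and 35.8% (DMSO) at 16 h. With every library set to its median gene, 9 of the 10 still rose, against 35.4% of all genes with 31.4% falling, and COL1A1 did not pass (-0.04, adjusted p = 0.740). With the trend of each library with read density removed, 3 rose (COL5A2, COL4A2 and COL6A3) and 3 fell (COL1A1, COL1A2 and COL5A1). Of all 11989 genes 1849 then rose and 1349 fell.

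In total RNAPII the same hours gave a smaller collagen difference. On the deposited scale 6 of the 10 genes rose at 19 h over 16 h, against 39.8% of all genes, and none fell, against 2.35%. The 6 were COL6A3 with 0.87 ± 0.25 (limma, adjusted p = 0.0118), COL6A1, COL4A2, COL4A1, COL6A2 and COL5A2, while COL1A1 had -0.02 ± 0.25 and COL1A2 0.07 ± 0.27. Set to the median gene, which gained 0.54, none of the 10 passed, against 3.75% of genes higher and 6.35% lower. The type I genes then had -0.50 for COL1A1 (limma, adjusted p = 0.123) and -0.41 for COL1A2 (adjusted p = 0.195).

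At 22 h over 16 h COL6A3 and COL6A1 had the largest Ser2 values of the 10. Of the 10 genes 6 rose, against 39% of all genes, and none fell, against 0.918%. COL6A3 rose by 0.78 ± 0.11 (limma, adjusted p = 9.29e-05), COL6A1 by 0.70 ± 0.10 (adjusted p = 9.43e-05), COL6A2 by 0.43 ± 0.10, COL3A1 by 0.41 ± 0.09, COL5A2 by 0.36 ± 0.09 and COL1A2 by 0.30 ± 0.10. Set to the median gene, 2 of the 10 rose, COL6A3 by 0.55 ± 0.10 (adjusted p = 5.32e-04) and COL6A1 by 0.47 ± 0.09 (adjusted p = 9.66e-04), against 10.2% of genes with 10.5% falling. With the trend with read density removed instead, both still rose, and COL1A1 and COL4A1 fell. Of all 11989 genes 551 then rose and 391 fell. COL4A1 had -0.04 ± 0.11 on the deposited scale.

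In total RNAPII no gene passed between 22 and 16 h in limma (0% of 12031 genes). The fitted differences ran from -0.55 ± 0.24 for COL4A1 to 0.16 ± 0.25 for COL6A3, with 3 of the 10 above the median gene at -0.06. Before adjustment p was under 0.05 for 1 of the 10, among 72 genes higher and 283 lower. EdgeR called 0 genes, and DESeq2 called 25 genes higher and 25 lower, none of them among the 10. The treatments differed here: 22 h over 16 h, the median log2 ratio of the 10 genes was 0.14 with ATRi and -0.62 with DMSO, and that of all genes 0.14 with ATRi and -0.26 with DMSO. With DMSO 9 of the 10 lay below the median gene, COL6A3 being the exception, and with ATRi 5 of 10 did.

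At 16 h with DMSO over 14 h, for which there is no ATRi library at the earlier time, total RNAPII was higher over all 10 genes. The log2 ratios ran from 0.24 to 0.77 with a median of 0.48, beside 0.26 for the median gene, and 8 of the 10 lay above the median gene. The share of all genes that were higher was not counted. In Ser2 the median of the 10 was -0.20, beside -0.07 for the median gene, and 1 of the 10 lay above the median gene. These single pairs have no test, and what CTR stands for at 14 h is not stated.

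Ser2 was then set against total RNAPII in the same 7 conditions. On the deposited scale Ser2 was lower than total RNAPII in all 10 genes, from -0.33 ± 0.13 for COL3A1 to -0.52 ± 0.17 for COL1A2, and all 10 passed limma's adjusted p of 0.05. So did 78.7% of all genes in that direction, and the median gene had -0.36. Set to the median gene, none of the 10 passed, against 24.5% of genes lower and 30.1% higher. EdgeR and DESeq2, which also scale on the bulk of genes, called 0 of the 10. EdgeR called 3513 of all 12000 genes higher and 3063 lower, and DESeq2 3712 higher and 2616 lower. Quantile scaling still called 7 of the 10 lower, with 3498 of all genes lower and 3132 higher. With background subtracted 8 of the 10 were lower, as were 9795 of all genes, while 277 were higher. With the trend with read density removed, 5 of the 10 were higher in Ser2 and none lower: COL1A1, COL1A2, COL4A1, COL6A2 and COL6A3. Of all 12000 genes 1865 were then higher and 1972 lower.

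The ratio of Ser2 to total RNAPII lay on different sides of the median gene by condition. All 10 genes lay above the median gene at 22 h with DMSO and at 19 h with ATRi, and all 10 lay below it at 22 h with ATRi and in both 16 h conditions. At 22 h the median log2 ratio of the 10 was -0.72 with ATRi and 0.03 with DMSO, and the median gene had -0.45 with ATRi and -0.12 with DMSO. COL1A1 had a log2 ratio of -0.99 with ATRi and 0.11 with DMSO at 22 h, the widest gap of the 10 at that hour. At 16 h the medians were -0.88 with ATRi and -0.97 with DMSO, and at 19 h -0.10 with ATRi and -0.26 with DMSO. Each ratio compares 2 libraries, and their in-gene read shares at 22 h were 44.3% for Ser2 and 57.4% for total RNAPII with ATRi, and 40.0% and 42.8% with DMSO.

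**Figure D3:**
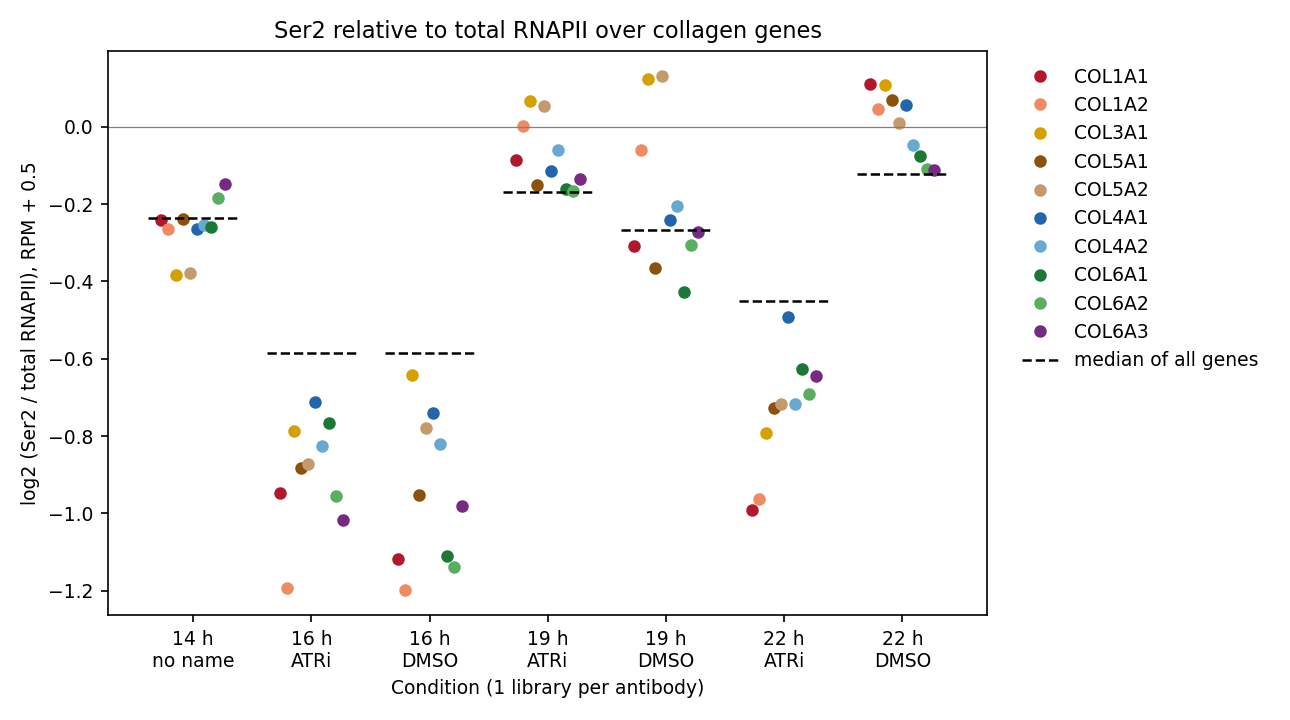
Log2 ratio of Ser2 to total RNAPII (RPM + 0.5) over each collagen gene in the 7 conditions, 1 library per antibody and condition; dashed lines are the median of all genes. All 10 points lie below the line at 16 h and at 22 h with ATRi, and all 10 lie above it at 22 h with DMSO.

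The course of each gene over the libraries was then compared with that of every other gene. For each gene log2(RPM + 0.5) was set to the median gene of its library and to the gene's mean within its antibody, and Pearson's r was taken over the 14 libraries as a description. The points share libraries, depth and cells. COL4A1 and COL4A2 had r = 0.94, and among 11999 genes COL4A2 held rank 3 in likeness to COL4A1 and COL4A1 rank 17 in likeness to COL4A2. COL6A3 had r = 0.93 with COL6A1 and 0.87 with COL6A2. In likeness to COL6A3, COL6A1 held rank 145 and COL6A2 rank 838, so many genes outside the family ran closer to it. COL3A1 and COL5A2, neighbours on chromosome 2, had r = 0.86, with COL5A2 at rank 8 for COL3A1 but COL3A1 at rank 332 for COL5A2. COL1A1 and COL1A2, whose chains form 1 molecule, had r = 0.73, with COL1A2 at rank 108 for COL1A1 and COL1A1 at rank 286 for COL1A2, and COL1A1 had r of only -0.24 to 0.49 with the other 8 genes.

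The partners were also set side by side in single pairs. Over the 6 pairs of ATRi and DMSO libraries, the log2 ratios of COL4A2 and COL4A1 differed by at most 0.08, and had the same sign in 6 of 6. The COL6A2 and COL6A1 ratios differed by at most 0.15, with the same sign in 6 of 6. Those of COL1A2 and COL1A1 differed by at most 0.16, with the same sign in 5 of 6, and those of COL5A2 and COL3A1 by at most 0.14, with the same sign in 4 of 6. At 22 h all 10 collagen ratios were above 0 with both antibodies, so any 2 of the 10 share a sign there. How often other gene pairs share signs or lie as close was not counted. The RPM of COL4A2 was 1.29 to 1.66 times that of COL4A1 in every library, and per kilobase the median ratio was 1.09. The genes outside the 10 whose course was most like the mean of the 10 were TTPAL (r = 0.98), SLC35H1 (r = 0.98), ATL3 (r = 0.97), VAMP1 (r = 0.96) and GREM1 (r = 0.96). GREM1 encodes a secreted antagonist of bone morphogenetic proteins, and ATL3 a membrane protein that shapes the endoplasmic reticulum. FN1, the gene for fibronectin, ranked 8th with r = 0.96.

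**Figure D4:**
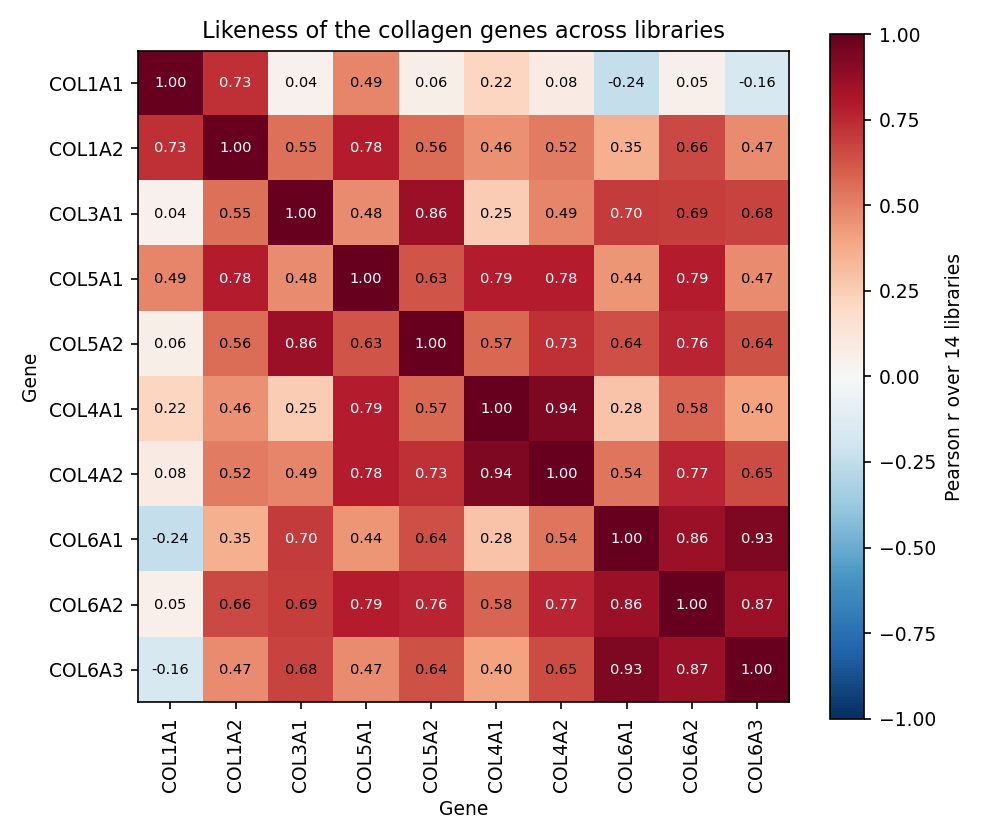
Pearson's r between collagen genes over 14 libraries, from log2(RPM + 0.5) set to the median gene of each library and the mean of each antibody; rows and columns are the 10 genes. The type IV pair (0.94) and COL6A1 with COL6A3 (0.93) are the darkest cells off the diagonal, and COL1A1 is pale against all genes but COL1A2 and COL5A1.

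Genes whose products act on collagen were read next, in lists written for collagen biology. Of 23 genes for folding and modification in the endoplasmic reticulum 20 were in the table. ATRi minus DMSO, their median log2 difference was 0.22 in total RNAPII and 0.12 in Ser2, and limma called none. In total RNAPII CREB3L1, a membrane-bound transcription factor for secretory cargo, had 0.42 and FKBP10, a prolyl isomerase of the endoplasmic reticulum, 0.33. P3H2, a prolyl 3-hydroxylase, had -0.14 and CRTAP, a part of the prolyl 3-hydroxylation complex, 0.10. P3H2 was low in reads per kilobase, at a median percentile of 11.7 among all genes. At 19 h over 16 h all 20 rose in Ser2, against 85.9% of all genes, with a median of 1.15 beside 0.90 for the median gene. PPIB (1.73) and P4HB (1.53), the genes for cyclophilin B and for the beta subunit of prolyl 4-hydroxylase, led. Set to the median gene of each library, 11 of the 20 rose and 1 fell, against 35.4% of all genes rising and 31.4% falling. In total RNAPII 15 of the 20 rose, against 39.8% of all genes, and 1 did once centred on the median gene, against 3.75%. At 22 h over 16 h in Ser2 13 of the 20 rose, against 39% of all genes, and 4 did once centred, against 10.2%.

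Of 15 genes for processing and cross-linking outside the cell 11 were in the table. None was called for ATRi in either antibody, with medians of 0.27 in total RNAPII and 0.15 in Ser2. LOX, the enzyme that starts collagen cross-links, had 0.57 in total RNAPII and SPARC, a collagen-binding matrix protein, 0.35. BGN, the proteoglycan biglycan, had 0.13 and ADAMTS14, a procollagen N-proteinase, -0.09. ADAMTS14 was low in reads per kilobase, at a median percentile of 6.04 among all genes. At 19 h over 16 h 10 of the 11 rose in Ser2, against 85.9% of all genes, with LOXL2 at 1.86 and LOXL3 at 1.69. Once centred, 7 of the 11 rose and 2 fell, against 35.4% of all genes rising and 31.4% falling. Both LOXL2 (1.26) and LOXL3 (1.00), which encode relatives of LOX, also rose in total RNAPII, as 2 of the 11 against 39.8% of all genes. Once centred there, 1 of the 11 rose and 1 fell, against 3.75% of all genes rising and 6.35% falling. In Ser2 at 22 h over 16 h 5 of the 11 rose, against 39% of all genes. Once centred, 2 rose and 2 fell, against 10.2% of all genes rising and 10.5% falling.

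All 8 collagen receptor genes were in the table, and none was called for ATRi. Their median ATRi difference in total RNAPII was 0.13. ITGB1, the beta subunit shared by the collagen-binding integrins, had 0.29 and DDR1, a receptor tyrosine kinase, -0.10. DDR1 held only 0.919 to 1.84 RPM, at a median percentile of 0.117 among all genes by reads per kilobase. At 19 h over 16 h 7 of the 8 rose in Ser2, against 85.9% of all genes. Once centred, 5 rose and 2 fell, against 35.4% of all genes rising and 31.4% falling. In total RNAPII 6 of the 8 rose, against 39.8% of all genes, and 4 did once centred, against 3.75%. ITGA2, the alpha subunit of an integrin that binds fibrillar collagen, gained 2.68 in Ser2 and 1.97 in total RNAPII, more than any of the 10 collagen genes. In Ser2 at 22 h over 16 h 5 of the 8 rose, against 39% of all genes, and 4 did once centred, against 10.2%.

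The 14 other collagen genes in the table, of which 13 were abundant enough to test, had lower values for the inhibitor. For ATRi in total RNAPII their median log2 difference was 0.10, beside 0.30 for the 10 genes and 0.18 for all genes, and 2 of the 13 lay above the median gene. COL18A1, a basement membrane collagen, had 0.32 and COL24A1, a minor fibrillar collagen, -0.22, and limma called none. At 19 h over 16 h in Ser2 9 of the 13 rose, a smaller share than the 85.9% of all genes. COL7A1 (1.90), the anchoring fibril collagen, and COL12A1 (1.75), a collagen bound to the surface of fibrils, led. COL24A1 (-1.21), COL4A6 (-0.92) and COL8A1 (-0.42) fell, as did 5.67% of all genes, whereas none of the 10 fell on the deposited scale. By reads per kilobase these 3 had median percentiles of 3.90, 0.262 and 7.12 among all genes. None of the 10 lay below the 49.3th percentile in any library. Whether that low level accounts for the falls was not tested. Once centred, 6 of the 13 rose and 6 fell in Ser2, against 35.4% of all genes rising and 31.4% falling. In total RNAPII 5 of the 13 rose and 3 fell at 19 h over 16 h, the 3 that fell in Ser2. Of all genes 39.8% rose and 2.35% fell. Once centred there, 2 of the 13 rose and 5 fell, against 3.75% of all genes rising and 6.35% falling. In Ser2 at 22 h over 16 h 6 rose, against 39% of all genes. Once centred, 2 rose and 5 fell, against 10.2% of all genes rising and 10.5% falling. No test of the 10 against the 13 was made.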

How the data were processed

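The deposited table holds the authors' RPM (reads per 1000000 reads of the library) over the span of 12425 genes in 14 libraries, without division by length. Per the submitters' processing notes, Bowtie2 2.3.3.1 and SAMtools 1.4 were used with hg38. Counting, strand, duplicates, input and spike-in are not given in the sources used here. RPM values stepped by what 1 read is worth in their column (100% whole, tolerance 0.01 reads), which gave back whole reads and library totals of 17181179 to 62368915. A floor of 3 reads corresponded to at most 0.175 RPM.

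Two-sided moderated tests with an intensity trend came from limma 3.58.1 (R 4.3.3), applied to log2(RPM + 0.5). Nuclear genes averaging 1 RPM or more entered, and p-values were adjusted over all of them by Benjamini-Hochberg with a threshold of 0.05. A fold change on this scale understates the change of low genes. All 10 collagen genes passed the filter. For ATRi the hours were blocks; for hours the treatments stood in for replicates; for Ser2 minus total the conditions were blocks. P-values therefore measure only the spread between these libraries. EdgeR 4.0.16 and DESeq2 1.42.0 on recovered reads were alternatives, as were median centring, quantile scaling, removal of the trend with read density and subtraction of background density. Limma and edgeR were also run on simulated counts with a small fixed spread. DESeq2 and the other scalings were not, and such a run says nothing about the spread between these libraries. Intervals at 95% are exact binomial ones for counting error only, and reads are not independent molecules.

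The members and the lists were chosen with earlier results of these data known. All 10 members are named; other list genes are named by size of change, and the 5 genes most like the mean of the 10 by Pearson's r. RefSeq symbols were matched by position for 10723 genes (86.3%), and COL5A2 by its identifier. RefSeq promoter windows matched 5 of the 10 members, COL4A1, COL4A2, COL5A1, COL6A2 and COL6A3.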

Additional observations from a re-analysis of the deposited data

Results flagged for a closer look

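Several collagen genes had ATRi to DMSO ratios of opposite sign at different hours with both antibodies, which is what brought them here. The 16 h log2 ratio exceeded the 19 h ratio, as a mean of both antibodies, by 0.63 for COL4A1, 0.61 for COL6A3, 0.55 for COL4A2 and 0.48 for COL1A2. The 22 h log2 ratio exceeded the 19 h ratio by 0.96 for COL6A3, 0.80 for COL1A2, 0.77 for COL6A1, 0.74 for COL6A2, 0.68 for COL4A1, 0.63 for COL3A1 and 0.62 for COL4A2. The median gene had ratios of 0.05, -0.03 and 0.50 at 16, 19 and 22 h in total RNAPII, and 0.06, 0.06 and 0.16 in Ser2. Only the 10 genes were screened for such sign changes, so the share of all genes with them is not known. The differences themselves were not tested, and in the related test of 22 h against the mean of 16 and 19 h limma called none of the 10. The 19 h ratios were small, between -0.36 and -0.05 in total RNAPII for these 7 genes, and in Ser2 COL6A1 had -0.00454 and COL6A2 -0.00557 with counting intervals that held 0. Both antibodies may have been used on the same chromatin.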

How the results depend on the processing

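The labels give no replicate numbers, so blocks were hours, treatments or conditions. The number of reads limits the ratios of the genes with the fewest reads, such as COL6A1 and COL3A1, whose counting intervals at 16 h were wider than their ratios. Of the recomputed medians and counts, 162 moved by less than the spread between the pairs of libraries or, for counts, within 1.5 times, and 38 moved by more. That spread is wide for ATRi, so a small median there can still count among the 162. The cause was not tested. The median of the 10 genes for ATRi in Ser2 became -0.0436 with the density trend removed, and 3 of the 10 passed without 19 h. For 22 h minus 16 h in Ser2 the median (0.33 as deposited) was 0.11 with median centring, 0.15 with quantile scaling, -0.0738 with the density trend removed, 0.43 with background subtracted, 0.12 in edgeR and 0.10 in DESeq2. The count of 6 became 2 with centring, quantile scaling or edgeR, 1 in DESeq2 and 0 with background subtracted, and with the density trend removed 2 genes rose and 2 fell. With background subtracted only 2 of all 11989 genes rose and 7 fell. EdgeR had 1160 genes rising and 911 falling, and DESeq2 623 and 597. Quantile scaling had 1212 rising and 1104 falling, and centring 1221 and 1262. For 19 h minus 16 h in total RNAPII the median (0.58) was 0.10 with centring or quantile scaling, -0.14 with the density trend removed, 0.70 with background subtracted, 0.0580 in edgeR and 0.0318 in DESeq2. The count of 6 became 0 with centring, quantile scaling, background subtracted or edgeR, 3 with the density trend removed and 1 in DESeq2. Those 3 genes and that 1 gene fell. Of all 12031 genes 1132 fell and 1208 rose with the density trend removed, and 1144 fell and 347 rose in DESeq2. With background subtracted 42 fell and 97 rose, and in edgeR 817 fell and 375 rose. Quantile scaling gave 936 falling and 609 rising, and centring 764 and 451. For 19 h minus 16 h in Ser2 the median (1.35) was 0.49 with centring, 0.56 with quantile scaling, 0.0889 with the density trend removed, 1.86 with background subtracted, 0.46 in edgeR and 0.44 in DESeq2. The count of 10 became 6 with the density trend removed, 3 that rose and 3 that fell. For Ser2 minus total the median was 0.14 with the density trend removed, and the count of 10 lower became 5 higher there and 0 with centring, edgeR or DESeq2. That count was 7 lower with quantile scaling and 8 lower with background subtracted. For 22 h minus 16 h in total RNAPII 3 genes (COL1A1, COL1A2 and COL4A1) fell with the density trend removed. Of all 12031 genes 555 then fell and 491 rose.

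Signs turned with the density trend removed. For 22 h minus 16 h in Ser2 COL1A1 became -0.35 and COL1A2 -0.16. For 19 h minus 16 h in total RNAPII COL1A2 became -0.53, COL5A1 -0.29, COL5A2 -0.13 and COL6A2 -0.16. For 19 h minus 16 h in Ser2 COL1A1 became -0.61, COL1A2 -0.19, COL5A1 -0.21 and COL6A2 -0.0109. For Ser2 minus total COL1A1 became 0.21, COL1A2 0.20, COL3A1 0.16, COL5A1 0.0851, COL5A2 0.16, COL4A1 0.12, COL4A2 0.0836, COL6A1 0.0509, COL6A2 0.11 and COL6A3 0.18. With centring, edgeR and DESeq2 in that order, COL1A1 at 19 h minus 16 h in Ser2 became -0.0382, -0.0862 and -0.11, and for Ser2 minus total COL3A1 became 0.0382, 0.0439 and 0.0592, COL5A2 0.00306, 0.00571 and 0.0248, and COL4A1 0.00954, 0.0105 and 0.0304. DESeq2 gave no adjusted p for 3 of the 10 genes for ATRi in Ser2.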

Other observations

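The single 22 h pair of total RNAPII libraries was also read under scalings chosen after the data were seen. The median log2 ratio of ATRi to DMSO over the 10 collagen genes was 0.94 as deposited, 0.44 with the pair set to its median gene, 0.18 with the trend with read density removed, and with background subtracted it was 1.18; all 10 genes stayed above 0 under each. In Ser2 the same median was 0.20 as deposited, 0.04 set to the median gene, -0.08 with the trend removed and 0.30 with background subtracted, where 3 of the 10 lay above the median gene. At 19 h in total RNAPII the median was -0.18 as deposited, -0.16 set to the median gene, -0.09 with the trend removed and -0.20 with background subtracted. At 16 h in total RNAPII it was 0.21 as deposited, 0.15 set to the median gene, 0.05 with the trend removed and 0.23 with background subtracted.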
